A study of Macaca fascicularis with 24 samples.

Results

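Interferons are secreted when cells sense viral or displaced nucleic acid, and through their receptors they switch on a set of target genes. The products block viral RNA, tag or trap viral proteins and raise the display of peptides to T cells. In the vessel wall, endothelium, smooth muscle and resident leukocytes can all answer interferon. Here 9 such target genes were followed in the thoracic aorta: IFIT1, IFIT3, MX1, OAS1, ISG15, IFI6, IFI27, IFI44L and TAP1. They were chosen by name, with earlier results of these data known. All 10 probe sets that the platform annotation assigns to them were taken, among 22215 probe sets and 11963 singly named genes on the array. A probe set is a group of short probes meant to read the transcripts of a gene, and some may also read related transcripts. OAS1 has 2 probe sets.

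Thoracic aorta RNA of Macaca fascicularis, the cynomolgus monkey, was read with 6 single-colour arrays for each of 4 groups. These were old males (mean age 20.0 years), young males (6.6 years), old females (21.2 years) and young females (7.2 years), and the labels name no treatment or genotype. In 3 pairs of arrays (young males 3 and 4, old females 1 and 4, young females 3 and 4) the readings nearly coincided, so each pair was averaged and counted as 1 sample under its lower number. That left 21 samples, 6 old males, 5 young males, 5 old females and 5 young females. The study asked how the aorta's transcripts differ between old and young animals of each sex.

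The levels below are log2(intensity + 16) after quantile normalisation, so a difference of 1 is a doubling of intensity plus 16, which understates changes of dim genes. Array medians ran from 144.2 to 264.1 in the deposited intensities. On 7 arrays, which make up 6 samples (old males 2 and 4, young male 1, old females 2 and 6, young female 3), the median correlation with the other arrays, over the brighter probe sets, was 0.809 to 0.828, against 0.878 to 0.935 on the other 17. The actin control, read at its 3′ and its 5′ end, gave a log2 ratio of 3′ over 5′, which rises with RNA degradation, of 0.785 to 1.73 for the 7, against -0.25 to 1.15 for the 17. These are called the divergent samples, and the age changes are given with and without them. Smooth muscle markers were present in all groups (5 of 5 above the filter on low values, among them MYH11 and ACTA2), as were 4 of 4 endothelial markers. Nothing in the labels says that replicates of a group are separate animals, so p-values measure the spread between these samples. In bulk tissue, fewer cells of a type and less RNA per cell cannot be told apart.

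The members were dim on this array. Only 3 of 10 probe sets (IFIT3, IFI27 and TAP1) reached the filter, a mean at or above the median of all probe sets, and all member means lay below the 75th percentile. The other 7 were tested in a fit over all 22215 probe sets, so that every member has a value. The deposited intensities averaged from 67.2 for IFI44L to 407.2 for TAP1 over the 24 arrays. Brightness cannot be compared between different probe sets, all the more as human probes read monkey RNA. As a view of signal without a target, 11 probe sets of 7 Y-linked genes averaged 4.93 to 7.40 in the 10 female samples, some of which may read X-linked relatives. Of the 10 member probe sets, 7 had a mean over all samples at or under the highest of these values. All 10 lay above their median of 5.54.

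The near-equal arrays give the spread of a member's reading within pairs that were picked for being alike. A low SD there is partly set by that choice, and whether a pair comes from the same animal is not known. The SD between the arrays of such a pair was 0.12 for IFI6, 0.15 for TAP1, 0.16 for IFIT3, 0.17 for IFI27 and 0.21 for IFIT1. For these genes it was well under the SD between samples of a group, which was 1.17 for IFI6, 0.50 for TAP1, 0.48 for IFIT3, 1.25 for IFI27 and 1.03 for IFIT1. For IFI44L and MX1 the SD within pairs was nearly as large as that between samples. IFI44L had an SD of 0.75 within pairs and 0.79 between samples, and old females 1 and 4 were 1.53 apart. MX1 had 0.37 and 0.39, and young males 3 and 4 were 0.85 apart. Old females 1 and 4 were 0.20 apart for MX1, and young females 3 and 4 were 0.19 apart. The SD of MX1 within pairs thus came mostly from young males 3 and 4.

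**Figure D1:**
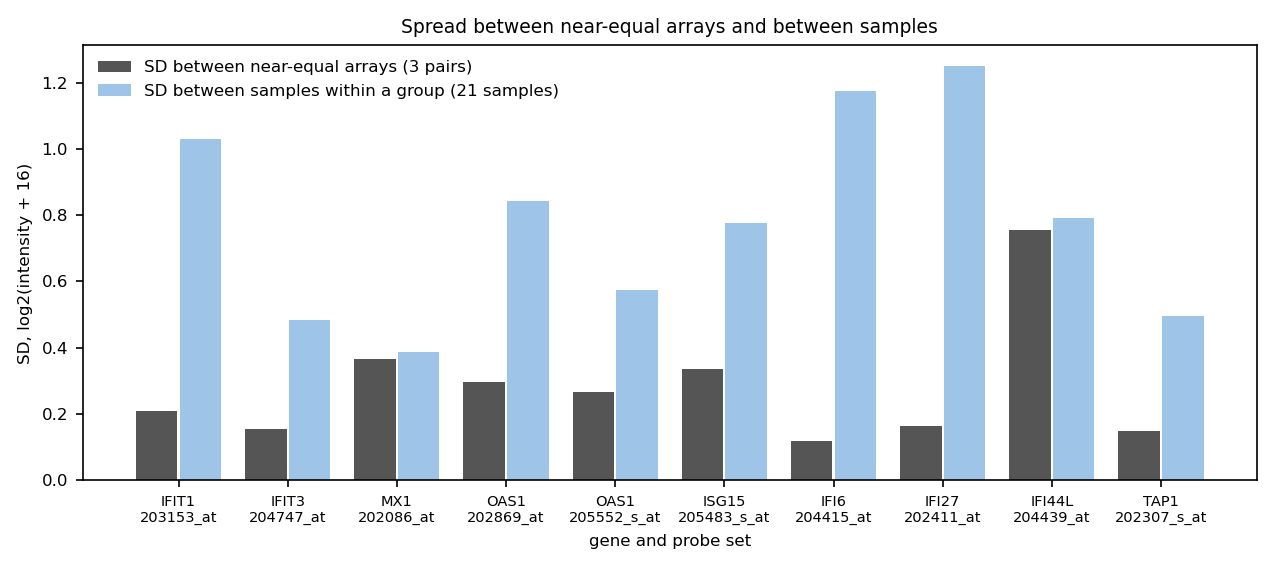
For each member probe set, bars from 0 show the SD between the arrays of the 3 near-equal pairs (dark) and the pooled SD between samples within a group (light), both on the log2(intensity + 16) scale. IFI44L (0.75 and 0.79) and MX1 (0.37 and 0.39) have bars of nearly equal height, while IFI6 (0.12 and 1.17) and IFI27 (0.17 and 1.25) do not.

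No member passed limma's threshold (Benjamini-Hochberg adjusted p below 0.05) in any age comparison, and the smallest adjusted p was 0.939. Among all filtered probe sets, 0.018% passed in males and 0% in females, with sexes averaged, or in the difference of the age effects between the sexes. In the fit over all probe sets, 0% passed in each of these 4 comparisons. At an unadjusted limma p below 0.05 there were 0 members in males, 1 in females (IFIT1), 2 averaged (IFIT1 and ISG15) and 0 in the difference, against 3.93%, 4.01%, 5.08% and 2.88% of all probe sets. The mean was higher in old animals for 8 of 10 probe sets in males and for 8 of 10 in females, against 49.5% and 49.7% of all probe sets. The age effect was the larger in males for 3 of 10, against 50.2% of all probe sets. Taken as 9 genes by their brightest probe set, the median log2 change was 0.44 in males, with 8 genes higher, and 0.38 in females, with 7 higher. Over all 11963 genes the medians were 0.001 and -0.002. Without the divergent samples the medians of the 9 genes were 0.31 in males and 0.39 in females, with 7 higher in each sex. For none of the 10 probe sets did old and young animals of a sex stand apart without overlap, which 0.612% of all probe sets did in males and 0.504% in females.

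**Figure D2:**
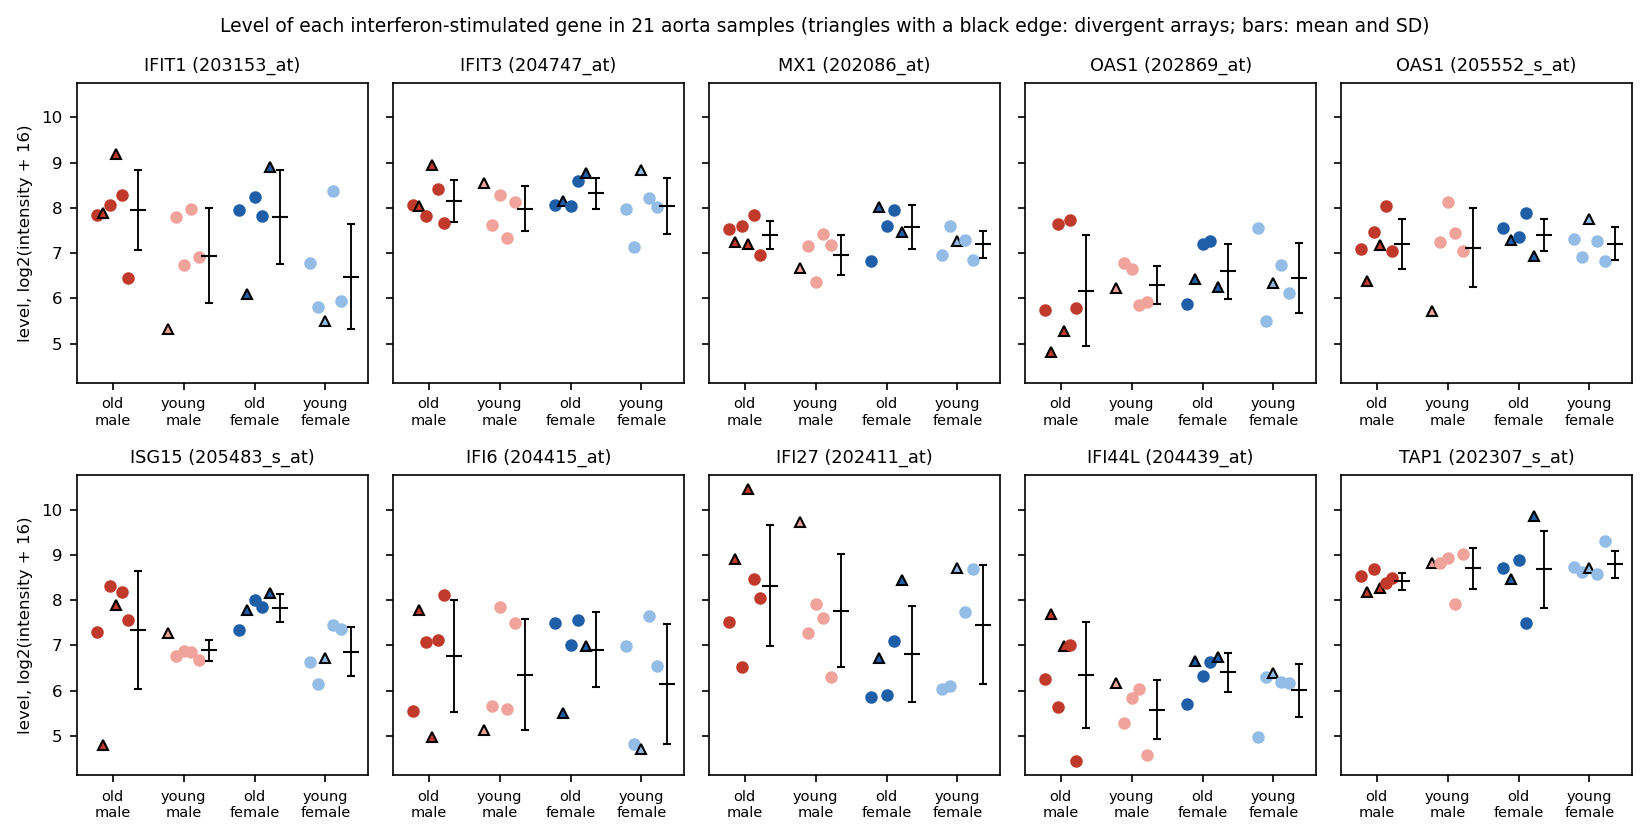
Each panel plots 1 member probe set, with every point a sample, on the log2(intensity + 16) scale for old males, young males, old females and young females. Short horizontal marks with bars are the group mean and SD, and triangles with a black edge are the 6 divergent samples. Old and young samples overlap in every panel, and the triangles hold many of the extremes, such as IFI27 at 10.46 in old male 4 and ISG15 at 4.80 in old male 2.

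The antiviral effectors come first. IFIT1 encodes a protein that binds viral RNA lacking a host-type cap. In old males 1 to 6 it read 7.85, 7.89, 8.06, 9.20, 8.29 and 6.46, against 7.79, 6.73, 7.98 and 6.91 in young males 2, 3, 5 and 6 and 5.32 in young male 1. Of the old males, 5 lay at or above 7.85, as did 1 young male (number 5), and old male 6 lay below all young males but number 1. In old females 1, 2, 3, 5 and 6 it read 7.96, 6.10, 8.24, 7.82 and 8.91, against 6.77, 5.80, 5.51, 8.37 and 5.95 in young females 1, 2, 3, 5 and 6. All old females but number 2 lay above all young females but number 5. The deposited intensities had a median of 242 in old and 93.5 in young male arrays, and of 231 in old and 42.8 in young female arrays. These medians are before normalisation and count both arrays of each near-equal pair.

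IFIT1 had the largest age change of the members on average. The log2 change was 1.01 ± 0.58 in males and 1.32 ± 0.60 in females (SE; 6 against 5 and 5 against 5 samples). With the sexes averaged it was 1.17 ± 0.42 (95% interval 0.30 to 2.03, limma adjusted p = 0.939), which ranked 249 of 22215 probe sets by p. Without the divergent samples the averaged change was 0.80 ± 0.39, the male change 0.31 ± 0.52 and the female change 1.28 ± 0.57. In males, leaving out young male 1 alone gave 0.60 and leaving out old male 6 gave 1.31. The age effect in males minus that in females was -0.31 ± 0.84, so no difference between the sexes was detectable, within an interval of -2.05 to 1.42.

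IFIT3 encodes the partner that binds and stabilises IFIT1, and RefSeq's macaque assembly T2T-MFA8v1.1 places it beside IFIT1, on chromosome 9. It averaged 8.15 ± 0.46 in old and 7.98 ± 0.49 in young males, and 8.32 ± 0.33 in old and 8.04 ± 0.61 in young females (SD). The averaged change was 0.23 ± 0.21 (limma adjusted p = 0.985; 95% interval -0.22 to 0.67), and 0.27 without the divergent samples. The correlation of IFIT1 with IFIT3 over the 21 samples was 0.18.

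MX1 encodes a dynamin-like GTPase that traps incoming viral particles. Old males read 6.97 to 7.84 with a median of 7.39, against 6.66, 7.16, 6.35, 7.43 and 7.18 in young males 1, 2, 3, 5 and 6. Old females read 6.83, 8.03, 7.59, 7.96 and 7.47, against 6.96, 7.61, 7.27, 7.28 and 6.84 in young females. The upper end lay with old animals in both sexes, but the groups overlapped. The averaged change was 0.41 ± 0.20 (limma adjusted p = 0.963), with 0.44 ± 0.28 in males and 0.38 ± 0.29 in females. It was 0.37 without the divergent samples, with 0.46 in males and 0.29 in females. The SD between near-equal arrays, given above, is nearly as large as this change.

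OAS1 encodes an enzyme that senses double-stranded RNA and makes the oligoadenylates that activate RNase L. It was read by a pair of probe sets, designed on different human transcripts. The brighter averaged 7.20 ± 0.55 in old and 7.12 ± 0.88 in young males, and 7.41 ± 0.35 in old and 7.21 ± 0.36 in young females. The dimmer averaged 6.17 ± 1.23 in old and 6.29 ± 0.42 in young males, and 6.60 ± 0.61 in old and 6.45 ± 0.76 in young females. In males the probe sets differed in sign, with a log2 change of 0.08 ± 0.36 on the first and -0.12 ± 0.49 on the second. Both signs turned without the divergent samples, to -0.06 on the first and 0.43 on the second. Leaving out young male 1 alone gave -0.27 on the first, and leaving out old male 2 alone gave 0.15 on the second. Over the 21 samples they correlated at 0.52. The averaged changes were 0.14 ± 0.26 and 0.02 ± 0.35, with limma adjusted p of 0.98 and 0.998, and 0.23 and 0.36 without the divergent samples.

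ISG15 encodes a ubiquitin-like protein that is joined to other proteins after interferon and is also released from cells. In old males 1 to 6 it read 7.29, 4.80, 8.31, 7.90, 8.19 and 7.57, against 7.28, 6.78, 6.88, 6.86 and 6.67 in young males 1, 2, 3, 5 and 6. Apart from old male 2, whose deposited intensity was 19.4, every old male lay above every young male, though old male 1 and young male 1 nearly met. In old females 1, 2, 3, 5 and 6 it read 7.35, 7.78, 8.0, 7.84 and 8.16, against 6.64, 6.15, 6.71, 7.44 and 7.37 in young females 1, 2, 3, 5 and 6. Of the 5 old females, 4 lay above all young females, and old female 1 lay below young females 5 and 6.

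The age change of ISG15 in males moved with single samples. It was 0.45 ± 0.45 with all samples, 0.96 without old male 2, 0.26 without old male 3 and 1.04 ± 0.33 without the divergent samples. In females it was 0.96 ± 0.47 with all samples and 0.83 ± 0.35 without the divergent ones. Averaged over the sexes it was 0.71 ± 0.33 (95% interval 0.03 to 1.39, limma adjusted p = 0.963), and 0.94 ± 0.24 without the divergent samples (limma adjusted p = 0.444). Neither passed the threshold. The samples left in the second value were 4 old males at 7.29 to 8.31, 4 young males at 6.67 to 6.88, 3 old females at 7.35 to 8.0 and 4 young females at 6.15 to 7.44.

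**Figure D3:**
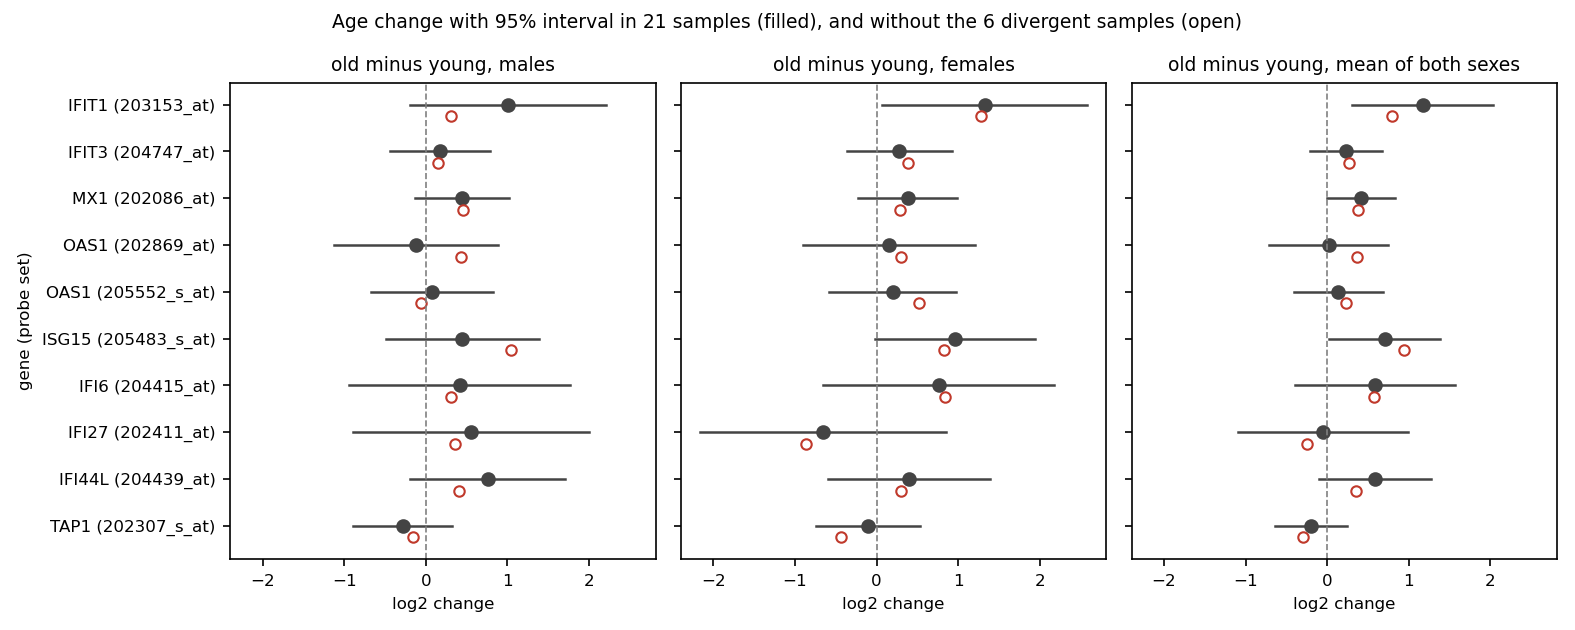
Old minus young log2 change of each member probe set in males, in females and averaged over the sexes, with filled points and 95% intervals from limma on 21 samples and open points for the values without the 6 divergent samples. The averaged intervals of IFIT1 (0.30 to 2.03) and ISG15 (0.03 to 1.39) lie above 0 before any adjustment for the number of probe sets, and the open point of ISG15 in males lies at 1.04 against a filled one at 0.45.

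IFI6 and IFI27 are related small membrane proteins, IFI6 tied to the endoplasmic reticulum and mitochondria and IFI27 to mitochondria and the nuclear membrane. IFI6 was the most scattered of the dim members within groups. It ran from 4.98 to 8.10 with a median of 7.09 in old males, and read 5.14, 5.66, 7.84, 5.61 and 7.50 in young males 1, 2, 3, 5 and 6. Old females read 7.49, 5.51, 7.01, 7.55 and 6.98, against 6.99, 4.81, 4.71, 7.66 and 6.55 in young females. Low readings occurred in every group. The averaged change was 0.59 ± 0.47 (limma adjusted p = 0.963), and 0.58 without the divergent samples. It was 0.42 ± 0.65 in males, or 0.11 without young male 1 and 0.79 without young male 3. In females it was 0.76 ± 0.68, or 0.40 without young female 3.

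IFI27 had the widest range of all members, from 5.86 to 10.46. In old males 1 to 6 it read 7.53, 8.90, 6.53, 10.46, 8.47 and 8.04, against 9.72, 7.27, 7.92, 7.61 and 6.31 in young males 1, 2, 3, 5 and 6. In old females 1, 2, 3, 5 and 6 it read 5.86, 6.72, 5.90, 7.10 and 8.44, against 6.05, 6.11, 8.71, 7.73 and 8.69 in young females. The highest sample of the old males, the young males, the old females and the young females was a divergent one in each case. Its log2 change was 0.55 ± 0.69 in males (0.13 without old male 4 and 1.04 without young male 1) and -0.65 ± 0.73 in females (-1.06 without old female 6 and -0.34 without young female 3), the reverse direction, and the difference of the age effects was 1.21 ± 1.0 (limma adjusted p = 1; 95% interval -0.88 to 3.29). These were 0.36 in males, -0.86 in females and 1.22 for the difference without the divergent samples. Among old animals it was higher in males by 1.52 ± 0.69 (limma adjusted p = 0.999; 95% interval 0.07 to 2.96).

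IFI44L encodes a cytoplasmic protein often used as a blood marker of interferon exposure, and its gene lies beside IFI44 in the macaque annotation. Its deposited intensity was as low as 4.6, on old male 6. Old males averaged 6.34 ± 1.17 and young males 5.58 ± 0.66, and old females 6.41 ± 0.43 and young females 6.01 ± 0.58. The averaged change was 0.58 ± 0.33 (limma adjusted p = 0.963), and 0.35 without the divergent samples. The arrays of the 3 near-equal pairs were 1.53, 0.58 and 0.85 apart for this gene. The change was 0.76 ± 0.46 in males, or 0.49 without old male 2 and 1.14 without old male 6, and 0.40 ± 0.48 in females, or 0.15 without young female 1.

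TAP1 encodes a subunit of the transporter that brings peptides into the endoplasmic reticulum for loading on MHC class I, and in the macaque annotation its gene follows that of PSMB9, an immunoproteasome subunit. It was the sole member with a lower mean in old animals of both sexes. Old males read 8.18 to 8.68 with a median of 8.43, against 8.82, 8.81, 8.93, 7.92 and 9.02 in young males 1, 2, 3, 5 and 6. Each of these young males but number 5 lay above all old males. Old females read 8.71, 8.46, 8.90, 7.50 and 9.87, against 8.74, 8.61, 8.72, 8.58 and 9.31 in young females, and here the old animals held both extremes. The change was -0.28 ± 0.29 in males and -0.10 ± 0.31 in females, and -0.19 ± 0.21 averaged (limma adjusted p = 0.985). Without the divergent samples it was -0.16 in males, -0.44 in females and -0.30 averaged. Leaving out young male 5 gave -0.48 in males. In females, leaving out old female 6 gave -0.40 and leaving out old female 5 gave 0.19.

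The sexes were also compared at each age. In young animals 4 of 10 probe sets had a higher mean in males and in old animals 2 of 10, and 0 passed limma's threshold, where 0.027% of filtered probe sets passed at each age, as did 0.0225% of all probe sets in young and 0.027% in old animals. A higher mean in males was found for 49.9% of all probe sets in young and 50.7% in old animals. At an unadjusted limma p below 0.05 there were 0 members in young animals and 1 in old animals (IFI27), against 2.17% and 4.86% of all probe sets. The median over the 9 genes was -0.05 in young and -0.16 in old animals, against -0.004 and 0.004 over all genes. IFI27 in old animals, given above, was the widest of these differences.

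Whether the members rose together on single arrays was examined by counting, on each of the 24 arrays, the genes more than 1 above their median over the samples. A joint rise was defined as at least 6 of the 9 genes. It occurred on 0 arrays. The most that IFIT3, MX1, OAS1 and ISG15 rose above their medians on any array was 0.87, 0.76, 0.89 and 0.96. A count of 6 was therefore out of reach here, and the 0 does not speak to smaller shared rises. The highest count was 2 genes, on 3 arrays, all divergent: IFI27 and IFI44L on old male 2, IFIT1 and IFI27 on old male 4, and IFIT1 and TAP1 on old female 6. On 5 arrays 1 gene was above and on 16 none was. The lowest readings were somewhat more shared, with 4 genes more than 1 below their median on young female 2 (IFIT1, ISG15, IFI6 and IFI27).

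The arrays with the highest mean over the 9 genes were not alike in which genes were raised. Old female 6 had a mean of 8.03, with IFIT1 at 8.91 and TAP1 at 9.87. Old male 5, which is not divergent, had 7.97, with 8 of 9 genes above their median but none by more than 1. Old male 4 had IFIT1 at 9.20 and IFI27 at 10.46, while its IFI6, at 4.98, was among the lowest. By group the mean over the 9 genes ran from 7.20 to 7.97 in old males, 7.04 to 7.44 in young males, 7.19 to 8.03 in old females and 6.60 to 7.64 in young females.

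**Figure D4:**
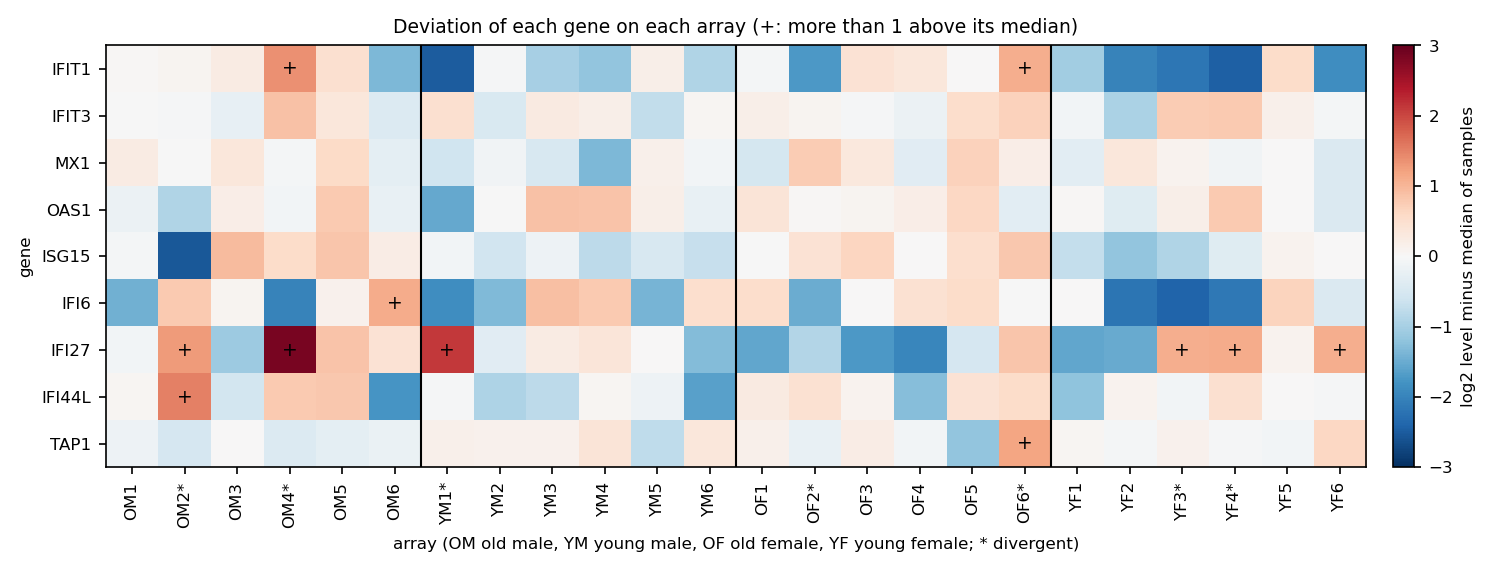
Each cell is the level of 1 member gene on 1 of the 24 arrays minus that gene's median over the samples, in log2 units, with arrays ordered as old males, young males, old females and young females, and divergent arrays marked by an asterisk. Plus signs mark cells more than 1 above the median, and no column has more than 2 of them.

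Markers of other cells stood high on old female 6 and on old male 4. On old female 6 the summed level of the T and NK cell markers was 12.40 and that of the B cell markers 10.88, each the highest of the 21 samples, and the smooth muscle sum of 15.32 was the lowest. Across groups the T and NK cell sum (5 of 5 markers named, CD2 alone above the filter) ran from 8.54 to 9.63 in old males, 8.44 to 9.86 in young males, 8.87 to 12.40 in old females and 8.94 to 10.08 in young females. The macrophage sum (4 of 5 named, all above the filter) ran from 10.06 to 11.14 in old males, 10.40 to 10.97 in young males, 10.37 to 11.91 in old females and 10.82 to 11.31 in young females. The B cell sum (2 of 3 named, CD79A under the filter) ran from 7.97 to 9.06, 7.84 to 9.29, 7.29 to 10.88 and 8.03 to 8.75 in the same order. The part of these cells in the high TAP1 and IFIT1 of old female 6 was not tested. On old male 4 the endothelial sum of 13.19 was the highest of all samples and the adipocyte sum of 14.60 the second highest. Their part in IFIT1 and IFI27 there was not tested. Old male 5, also high in its mean over the members, had marker sums from rank 7 (neutrophil) to rank 19 (B cell) of the 21 samples. Old male 2 had sums from rank 4 (B cell and adipocyte) to rank 21 (macrophage).

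Some marker lists also differed in their means between old and young animals, with 0 markers past limma's threshold. Smooth muscle markers were lower in old animals for 5 of 5 in males and 5 of 5 in females, with median log2 changes of -0.13 and -0.40. Endothelial markers were higher in old males for 4 of 4 (median 0.23) and in old females for 1 of 4 (median -0.22). Adipocyte markers were higher in old males for 4 of 4 (median 1.14) and in old females for 3 of 4 (median 0.28), with ADIPOQ, LEP and PLIN1 under the filter. Neutrophil markers were higher in old males for 2 of 3 (median 0.51) and in old females for 3 of 3 (median 0.75), with CSF3R and S100A9 under the filter. The medians for T and NK cells were -0.22 in males and 0.001 in females, for macrophages -0.03 and 0.22, for B cells 0.02 and 0.56, and for erythroid cells -0.06 and 0.13. Their part in the members' age changes was not tested.

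Between members the levels moved together weakly. Over the 21 samples, the 36 pairs of genes had correlations from -0.39 (MX1 and TAP1) to 0.56 (IFIT3 and IFI27), with a median of 0.07. Over the 15 samples that were not divergent they ran from -0.60 (MX1 and TAP1) to 0.67 (IFIT3 and IFI6), with a median of 0.21. IFIT3 and IFI27 then correlated at 0.21. These samples share a normalisation and the 4 groups, and the values are a description.

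The genes whose pattern over the 21 samples was most like the mean of the members were TRIM22 (Pearson correlation 0.759), PEPD (0.727), GRPR (0.689), EIF4EBP1 (0.66), DCP2 (0.656) and RGS19 (0.648), among 9880 probe sets, of which 1.03% exceeded 0.5. How high the best of so many correlations would be by chance was not tested, so the likeness is a description. TRIM22 encodes an antiviral tripartite motif protein, PEPD a dipeptidase that acts on peptides ending in proline, and DCP2 an mRNA decapping enzyme. Without the divergent samples the same correlations were 0.752 for TRIM22 and 0.43 to 0.72 for the other 5. The averaged age change was 0.28 ± 0.18 for TRIM22 and none of the 6 passed (limma adjusted p = 0.985 for each).

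The wider interferon system was read from 133 further genes, of which 117 were named on the array and 68 passed the filter. These genes too were listed with earlier results of these data known. In males 44 of the 68 had a higher mean in old animals and in females 48, against 48.2% and 46.5% of all 6952 filtered genes, and 0 passed limma's threshold in males, in females, averaged or in the difference between the sexes. At an unadjusted limma p below 0.05 there were 3 genes in males, 2 in females and 5 averaged of the 68, all higher in old animals, beside 3.93%, 4.01% and 5.08% of all probe sets in either direction. Those shares come from the fit over all probe sets, and the share among filtered genes is not given here. The median log2 change averaged over the sexes was 0.12 for the 68 genes and -0.01 for all filtered genes. Without the divergent samples it was 0.09.

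By role, the interferons themselves were mostly under the filter, with 1 of 14 named genes (IFNA17) above it. Of 11 receptors, kinases and transcription factors, 5 had a higher mean in old males and 9 in old females. IFNGR1, a chain of the interferon gamma receptor, averaged 8.11 ± 0.21 in old and 7.52 ± 0.25 in young males, and 8.23 ± 0.26 in old and 8.02 ± 0.20 in young females. Its averaged change was 0.40 ± 0.14 (limma adjusted p = 0.985), and 0.29 without the divergent samples. IRF8, a transcription factor of myeloid and B cells, had 0.71 ± 0.26 (adjusted p = 0.985), and 0.45 without the divergent samples. TYK2, a kinase of the type I receptor, had 0.54 ± 0.25 in females, and 0.22 without the divergent samples.

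Of 25 other effectors of the type I response, 16 had a higher mean in old males and 17 in old females, with median log2 changes of 0.10 and 0.09. OAS3, a relative of OAS1 that lies beside it in the macaque annotation, averaged 8.96 ± 0.50 in old and 8.29 ± 0.66 in young males, and 9.12 ± 0.50 in old and 8.67 ± 0.32 in young females. Its averaged change was 0.56 ± 0.22 (adjusted p = 0.985), and 0.29 without the divergent samples. OASL, another relative, had 0.56 ± 0.31 in females, and 0.49 without the divergent samples. TRIM38, a ubiquitin ligase, had an age effect in males minus that in females of -0.53 ± 0.32, and -0.41 without the divergent samples. Among 3 sensors and adaptors above the filter was AIM2, a sensor of cytosolic DNA, with a change of 1.34 ± 0.48 in females (adjusted p = 1). Without the divergent samples the AIM2 change in females was 0.84. It read 12.44 in old female 6, a divergent sample and the one with the highest lymphocyte marker sums. The other old females read 8.66 to 10.35, against 8.36 to 9.13 in young females.

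The feedback inhibitors had 2 of 6 genes higher in old males and 4 of 6 in old females. PIAS1, a SUMO ligase, had an age effect in males minus that in females of -0.49 ± 0.30, and -0.07 without the divergent samples. Of 7 interferon gamma targets, 6 had a higher mean in old males and 6 in old females, but their medians of 0.15 and 0.30 were -0.12 and -0.13 without the divergent samples. Of 15 genes of MHC class I processing besides TAP1, 12 had a higher mean in old males and 10 in old females, with medians of 0.05 and 0.08. HLA-B, a class I heavy chain whose probe set may also read its close relatives, averaged 14.18 ± 0.48 in old and 13.75 ± 0.33 in young males, and 14.35 ± 0.26 in old and 14.47 ± 0.24 in young females. Its age effect in males minus that in females was 0.56 ± 0.29 (limma adjusted p = 1), and 0.51 without the divergent samples.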

How the data were processed

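Total RNA was labelled with biotin by in vitro transcription, per the labels' protocols, and read on 24 single-colour arrays of human probe sets. The deposited values are linear intensities for 22277 probe sets, with a 2% trimmed mean of 500.1 to 500.2 on every array. The authors' summarisation and scaling: not given in the sources used here. Of the 22215 probe sets left after 62 controls, the platform annotation gives a single symbol to 19064 and several to 1043, which stayed unnamed, as did the other 2108.

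Values were taken as log2(intensity + 16) and quantile normalised. Arrays were averaged where their deviations from the mean of all arrays correlated above 0.65 over the brighter probe sets (3 pairs, lowest 0.757, against at most 0.509 in the other 273). Divergent samples had a median correlation below 0.85. Group means were fitted with limma 3.58.1 in R 4.3.3 (moderated variances with an intensity trend, tested on simulated data). The 3 members above the filter were tested among 11108 probe sets and the other 7 among 22215, with Benjamini-Hochberg adjustment over all of them. Errors are SEs after a change and SDs after a mean; the number of arrays limits precision. Genes named are the members, up to 4 genes of the wider lists per comparison with the smallest p, and the 6 most like the members. Members and lists were chosen with earlier results of these data known. Alternatives changed the normalisation, pseudocount, filter, averaging of arrays, weights, actin covariate, replicate block and samples kept.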

Additional observations from a re-analysis of the deposited data

Results flagged for a closer look

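Within a group, 5 of 40 sets of member values held a sample that lay far from all others of its group by Dixon's test. Chance alone flags about 1 of 20 groups when values are independent and normally spread. The 40 sets share the same 21 samples, and the share flagged among all probe sets is not given here. No excess particular to the members can therefore be read from this count. ISG15 read 4.80 in old male 2, a divergent sample, against 7.29 to 8.31 in the other old males. IFI6 read 5.51 in old female 2, also divergent, against 6.98 to 7.55 in the other old females. IFI44L read 4.98 in young female 1, against 6.16 to 6.40 in the other young females. TAP1 read 7.92 in young male 5, against 8.81 to 9.02 in the other young males. TAP1 also read 9.31 in young female 6, against 8.58 to 8.74 in the other young females.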

How the results depend on the processing

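Across 12 alternatives and with each of the 21 samples left out in turn, 0 of 1818 recomputed member values passed limma's threshold (smallest adjusted p 0.399) and 108 had the other sign. No member lies in the stricter filter at the 75th percentile, which therefore gave no member value. The median over the 9 genes ran from 0.31 to 0.50 in males, 0.22 to 0.57 in females and -0.22 to 0.10 for the difference of the age effects. Over all probe sets, the 2 that passed in males became 0 with median-centred arrays, a pseudocount of 64, no filter or the stricter filter, 1 with the actin covariate, 25 with array weights and 0 to 2 with a sample left out; the cause was not tested. With sexes averaged, 0 became 1 without the divergent samples. Between the sexes, 3 in young animals became 5 and 3 in old animals became 6 with no filter, where more probe sets were tested.

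With the replicate block, 0 probe sets with sexes averaged became 1, and IFIT1 changed by 1.04 and ISG15 by 0.65 there (limma adjusted p = 0.997 for both). After averaging, only old males kept a sample numbered 4. The block therefore gave the male changes found without old male 4, such as 0.76 for IFIT1 and 0.34 for ISG15. The female changes, such as 1.32 for IFIT1, stayed as in the main fit. Across groups, 30 same-numbered pairs correlated at -0.425 to 0.509 (median 0.0652), against a median of -0.003 for 135 others. These values do not settle whether the numbers pair the samples. The low signal of most members limits what these arrays can show.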
